A study of Mus musculus with 8 samples.

Results

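Cytoplasmic ribosomal proteins are the protein subunits of the ribosomes that translate messenger RNA in the cytosol. Their genes were chosen by symbol: a single symbol that begins with Rpl or Rps and a digit, or Rplp0, Rplp1, Rplp2 or Rpsa, without the S6 kinases and pseudogene symbols. The rule found 63 of the 19938 genes measured with 1 symbol. Where a gene had several probe sets, the probe set was selected on its mean log2 level over all 8 arrays, the highest being used, so that level is a description only. Of the 63 members, 33 belonged to the large subunit, 21 to the small subunit, and 9 were paralogs or other symbol matches. One of these 9, Rps19bp1, encodes a protein that binds Rps19 and is not itself a ribosomal protein.

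The cells were peritoneal macrophages of C57BL/6J mice, collected 5 days after thioglycollate injection and then cultured in DMEM with serum. Of the 8 cultures, 4 received no lipoprotein (unloaded) and 4 received acetylated low-density lipoprotein (acLDL), a modified particle whose uptake by scavenger receptors turns macrophages into cholesterol-laden foam cells. The sample protocols give 3 days and 20 µg/mL acLDL, whereas the series text gives 2 days and 50 µg/mL, so the exposure is known only within that disagreement. The series text calls the 4 arrays of each group independent biological replicates, without telling which mice supplied which culture. Arrays report RNA as log2 levels, in which a difference of 1 is a doubling, and they carry no read depth, so the 4 arrays a group limit the precision.

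Each ribosome holds about equal numbers of most of these proteins, and their genes are usually transcribed and translated as a coordinated set. Their messenger RNAs begin with a tract of pyrimidines, the terminal oligopyrimidine (TOP) tract, through which the mTOR pathway controls their translation and, by way of the binding protein Larp1, can also affect their stability. The arrays measured RNA amount, not translation. The mouse genome also carries many near-identical processed pseudogenes of these genes, so a probe set may read related copies as well, and the values of single members are uncertain to that extent.

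Promoter sequences are shown for the members that changed most and for 3 comparison genes, because shared start-site sequences are something the choice by symbol did not use. The RefSeq promoter table (GRCm38.p6) held 51 of the 63 members. The other 12 were Rpl7, Rpl8, Rpl21, Rpl23a, Rpl29, Rpl30, Rpl36, Rplp1, Rps14, Rps20, Rps29 and Rps4l. Each window runs 5′ to 3′ on the gene's strand, from 60 bases before the annotated start to 15 bases from it on. Capitals mark CTTCCG on either strand (CGGAAG on the other) and runs of at least 8 pyrimidines (C or T) on the gene's strand that lie wholly in the window. CTTCCG is the core that ETS-family factors such as GABPA recognise, and its letters CTTCC may form part of a pyrimidine run.
Rpl37a, chr1:72711200-72711274, plus strand: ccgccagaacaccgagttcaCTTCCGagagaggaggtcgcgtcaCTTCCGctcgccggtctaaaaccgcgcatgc
Rps27l, chr9:66946026-66946100, plus strand: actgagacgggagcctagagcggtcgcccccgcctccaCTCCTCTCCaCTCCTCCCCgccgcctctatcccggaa
Rpl26, chr11:68901506-68901580, plus strand: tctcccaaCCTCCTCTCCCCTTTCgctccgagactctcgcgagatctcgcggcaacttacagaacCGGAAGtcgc
Rpl27, chr11:101442185-101442259, plus strand: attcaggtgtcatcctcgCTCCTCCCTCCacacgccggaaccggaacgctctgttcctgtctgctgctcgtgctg
Rpsa, chr9:120127706-120127780, plus strand: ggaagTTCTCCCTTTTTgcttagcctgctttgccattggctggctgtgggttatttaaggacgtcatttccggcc
Rps18, chr17:33955651-33955725, minus strand: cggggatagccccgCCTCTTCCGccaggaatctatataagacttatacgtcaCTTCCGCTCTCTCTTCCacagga
Rpl4, chr9:64173327-64173401, plus strand: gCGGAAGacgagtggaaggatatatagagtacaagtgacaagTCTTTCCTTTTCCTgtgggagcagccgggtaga
Rpl5, chr5:107900468-107900542, plus strand: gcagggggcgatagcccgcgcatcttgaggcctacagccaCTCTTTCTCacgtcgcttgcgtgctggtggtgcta
Rps6, chr4:86857353-86857427, minus strand: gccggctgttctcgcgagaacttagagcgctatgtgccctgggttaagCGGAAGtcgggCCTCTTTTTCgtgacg
The first 6 genes were called higher with acLDL, Rpl4 did not pass the test, and Rpl5 and Rps6 were called lower.

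CTTCCG lay within the 300-base promoter entry of 34 of the 51 members (66.7%), of 17.2% of the 27025 genes in the table, and of 22.6% of the 15614 tested genes that it held. A run of at least 8 pyrimidines within 50 bases of the start was present in 36 of the 51 members (70.6%), in 35.7% of all genes in the table and in 34.3% of the tested ones. For the mitochondrial ribosomal proteins, which are built into a different ribosome, the shares were 37 of 68 (54.4%) for CTTCCG and 22 of 68 (32.4%) for the run. The promoter table held 23 of the 32 members called higher and 26 of the 29 that did not pass, so it missed more of the former. Among members called higher, 16 of 23 held CTTCCG and 16 of 23 held a run. Members that did not pass the test had them in 17 of 26 and 18 of 26. These shares lay close to each other, and their difference was not tested. The run printed for Rpsa lies partly farther than 50 bases from the start and was not counted. These matches describe letters, not binding.

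With acLDL, 32 of the 63 members were higher and 2 were lower at an adjusted p under 0.05 (limma, Benjamini-Hochberg over the 19938 genes), and 29 did not pass. Over all genes tested, 23.3% were called in either direction, 12.9% higher and 10.5% lower. The share of members called higher was 50.8%. Ribosomal protein probe sets are bright, and bright genes were called more often: of the 9969 genes with a mean level above that of the median gene, 21.5% were higher, compared with 31 of the 60 members in that range. The median difference of the members, acLDL minus unloaded, was 0.20 on the log2 scale, and the middle 50% of them lay between 0.07 and 0.45. For all genes the median was -0.00. In 36 members all 4 acLDL arrays were above all 4 unloaded arrays, and in 3 they were all below; over all genes these shares were 14.0% and 11.6%. No test of the group as a whole was made, and in these bulk samples a change in RNA per cell and a change in the mix of cells cannot be told apart.

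**Figure D1:**
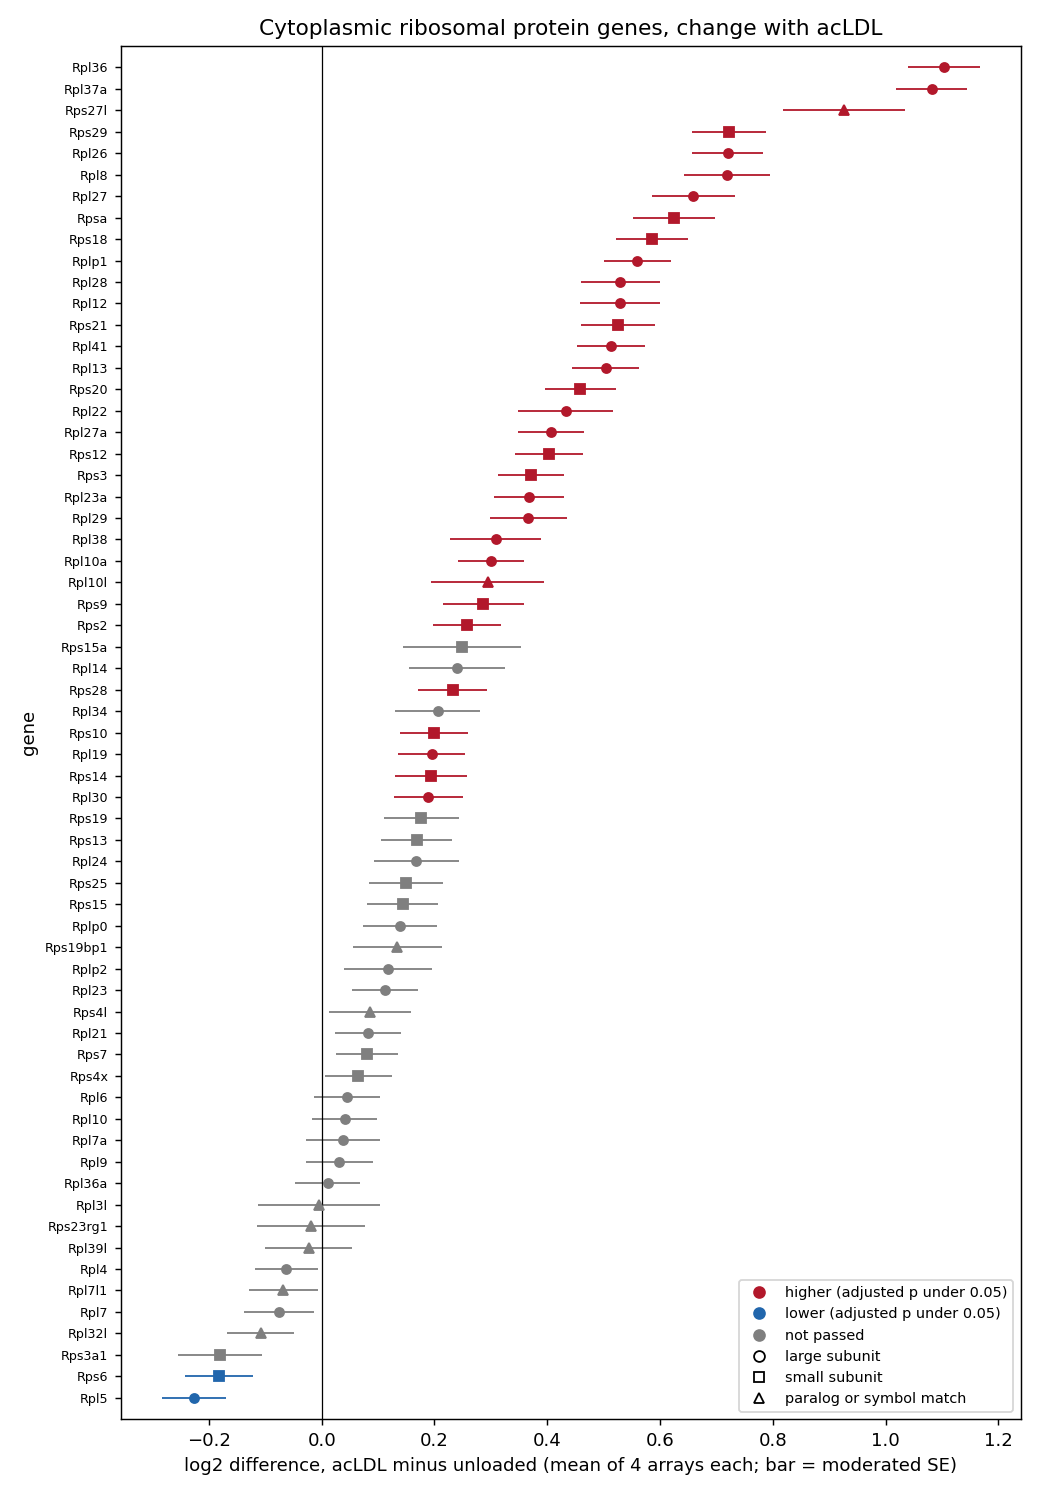
Log2 difference, acLDL minus unloaded, of each of the 63 members (x axis; points are the difference of the means of 4 arrays each, bars the moderated standard error), ordered by size on the y axis, with shape for the subunit and colour for the call. The members spread from -0.23 (Rpl5) to 1.10 (Rpl36), and 53 of the 63 lie above 0.

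The members did not move by one common amount. Their differences ran from -0.23 to 1.10, with 15 at 0.5 or more, while the median standard error of a member was 0.06. Replicate arrays lay close together: the median SD over 4 arrays was 0.07 in the unloaded and 0.06 in the acLDL group, compared with 0.11 and 0.09 for all genes. Of the 63, only Rpl36 and Rpl37a exceeded 2-fold on the probe sets used. For Rpl36 the one used gave the largest of its 9 differences, which ran from 0.84 to 1.10.

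In the large subunit, 18 of 33 members were higher, 1 was lower and 14 did not pass, with a median difference of 0.24. Rpl36, a small basic protein of the subunit's surface, had the largest rise of all members on the probe sets used. Its levels were 9.91, 9.79, 9.78 and 9.76 in the unloaded arrays and 11.00, 10.91, 10.85 and 10.89 in the acLDL arrays. The groups were far apart relative to their spread: the difference was 1.10 ± 0.06 (SE), or 2.15-fold, with an adjusted p of 8.38e-08. Rpl37a, a zinc-binding protein, gave 9.76, 9.73, 9.78 and 9.76 without acLDL and 10.98, 10.81, 10.78 and 10.79 with it. That is a difference of 1.08 ± 0.06, or 2.12-fold (adjusted p = 9.92e-08), measured by 1 probe set.

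Behind these came a group of large-subunit genes with rises near 0.7. Rpl26, which sits beside the exit of the tunnel through which the new protein leaves, read 7.50, 7.47, 7.50 and 7.40 in unloaded and 8.28, 8.21, 8.16 and 8.10 in acLDL arrays. Its difference was 0.72 ± 0.06 (1.65-fold, adjusted p = 4.62e-06). Rpl8, which lies close to the site where peptide bonds form, read 10.85, 10.60, 10.51 and 10.76 without and 11.35, 11.46, 11.38 and 11.41 with acLDL. Its unloaded arrays were more scattered (SD 0.15) than its acLDL arrays (SD 0.05), and the groups did not overlap (0.72 ± 0.08, adjusted p = 2.18e-05). Rpl27 rose from 10.08, 9.85, 9.75 and 9.90 to 10.47, 10.59, 10.55 and 10.60. All 4 acLDL arrays were above the highest unloaded array, and the difference was 0.66 ± 0.07 (adjusted p = 3.26e-05). Rpl28 (0.53), Rpl12 (0.53), Rpl41 (0.51) and Rpl13 (0.50) rose by similar amounts. Rpl41 encodes the smallest protein of the ribosome, and Rpl12 forms part of the base of the stalk.

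The stalk is the flexible arm of the large subunit that recruits and activates the translation factors, built from Rplp0 with pairs of Rplp1 and Rplp2. Its 3 genes gave different values. Rplp1 read 11.64, 11.55, 11.61 and 11.52 in unloaded and 12.21, 12.11, 12.12 and 12.11 in acLDL arrays, without overlap (0.56 ± 0.06, adjusted p = 2.36e-05). Rplp0, the scaffold, differed by 0.14 ± 0.07 (adjusted p = 0.150), with overlapping arrays. Rplp2 differed by 0.12 ± 0.08 (adjusted p = 0.320), also with overlap. Whether Rplp1 differed from the other two was not tested.

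Several large-subunit members with high signal had differences near 0. Rpl10, which joins the subunit at a late step of assembly, read 12.51, 12.42, 12.40 and 12.46 without and 12.51, 12.48, 12.48 and 12.48 with acLDL. The groups overlapped (0.04 ± 0.06, adjusted p = 0.660). The values for Rpl9 were 0.03 ± 0.06, for Rpl6 0.04 ± 0.06 and for Rpl21 0.08 ± 0.06, none of which passed. Rpl4 was below its unloaded levels in every acLDL array by a small margin, 12.02, 11.97, 11.98 and 11.95 against 11.93, 11.94, 11.90 and 11.92, and did not pass (-0.06 ± 0.06, adjusted p = 0.470).

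Rpl5 was the only large-subunit member called lower. Together with Rpl11 and the 5S ribosomal RNA it forms a particle that enters the large subunit and, when free, binds the p53 inhibitor Mdm2. It read 11.82, 11.75, 11.77 and 11.85 in unloaded and 11.58, 11.56, 11.56 and 11.58 in acLDL arrays. The acLDL arrays lay close together (SD 0.01) and below every unloaded array, with a difference of -0.23 ± 0.06, 1.17-fold lower (adjusted p = 0.0107). Rpl11 is listed on the array only by probe sets with several symbols and is not analysed here.

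In the small subunit, 12 of 21 members were higher, 1 was lower and 8 did not pass, with a median of 0.23. Rps29, a zinc-binding protein of the subunit's head, rose from 10.57, 10.37, 10.49 and 10.41 to 11.25, 11.20, 11.11 and 11.18. The groups were well separated (0.72 ± 0.07, 1.65-fold, adjusted p = 5.92e-06). Rpsa, also known as the laminin receptor, read 10.68, 10.51, 10.52 and 10.65 without and 11.38, 11.18, 11.14 and 11.16 with acLDL (0.62 ± 0.07, adjusted p = 4.66e-05). Its first acLDL array was the highest, and the others alone were still above every unloaded array. Rps18, at the contact between the head and the large subunit, rose from 11.23, 11.13, 11.07 and 11.27 to 11.75, 11.73, 11.75 and 11.80 (0.59 ± 0.06, adjusted p = 2.67e-05). Rps21 (0.53), Rps20 (0.46), Rps12 (0.40) and Rps3 (0.37), the last of which lines the messenger RNA entry channel, were also higher.

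The small subunit had 1 gene called lower, Rps6, the classical substrate of the S6 kinases downstream of mTOR. It read 12.16, 12.05, 12.10 and 12.21 in unloaded and 11.92, 11.98, 11.94 and 11.96 in acLDL arrays, without overlap (-0.18 ± 0.06, adjusted p = 0.0438). This call was lost in 14 of 22 alternative analyses. These include leaving out any single array other than unloaded array 2, with adjusted p from 0.0537 to 0.121. Rps3a1 gave a difference of the same size, -0.18 ± 0.08, with overlapping groups and an adjusted p of 0.104. At the threshold itself, Rpl10l was the called member with the highest adjusted p (0.0469, difference 0.29) and Rpl14 the uncalled one with the lowest (0.0557, difference 0.24).

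**Figure D2:**
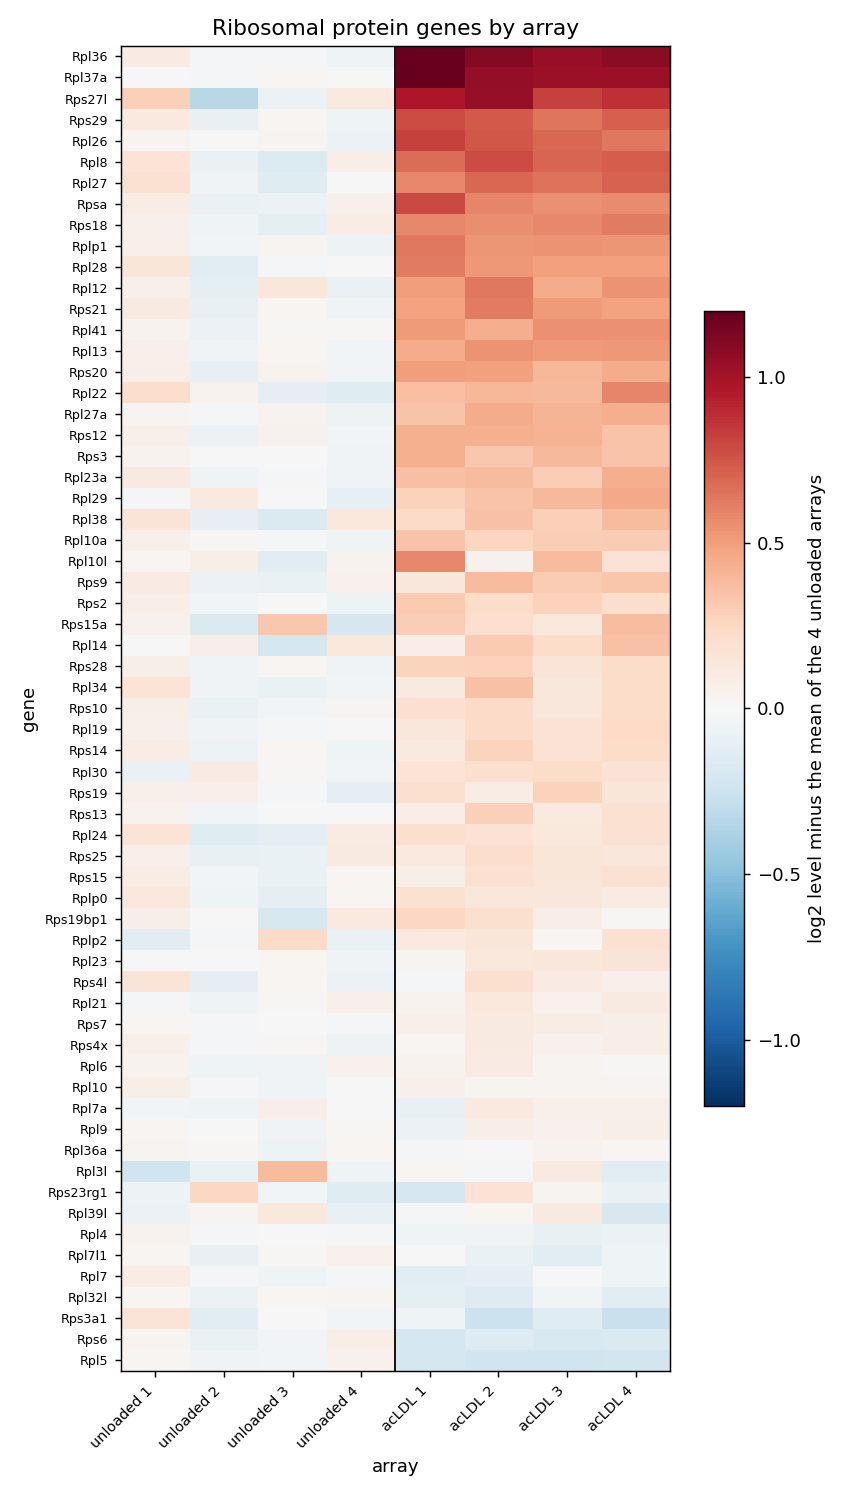
Level of each member in each of the 8 arrays as a difference from the mean of its 4 unloaded arrays (colour scale in log2 units; rows are genes ordered by their difference, columns are arrays). The acLDL columns are red in the upper rows in all 4 arrays, whereas rows from Rpl4 down are pale or blue.

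Among the 9 paralogs and symbol matches, 2 were higher and 7 did not pass, and the median was -0.00. Rps27l, a paralog of Rps27 and a p53 target gene, read 7.88, 7.26, 7.53 and 7.71 in unloaded and 8.57, 8.64, 8.41 and 8.47 in acLDL arrays. Its unloaded arrays were widely spread (SD 0.26), yet all lay below the acLDL arrays, and the difference was 0.93 ± 0.11 (1.90-fold, adjusted p = 4.76e-05). Its parent Rps27 is listed only by probe sets with several symbols and is not analysed here. Rpl10l, a paralog of Rpl10 known from the testis, had levels of 5.40 and 5.69 in the 2 groups. Both lie below 6.12, the 95th percentile of 1027 olfactory receptor genes taken as a background level, so its call rests on a dim signal, and the groups overlapped. Rpl3l (5.31 in both groups) and Rpl39l (4.30 and 4.28) were also below that level. Rpl7l1 (-0.07), Rps4l (0.09), Rpl32l (-0.11), Rps23rg1 (-0.02) and Rps19bp1 (0.13) did not pass.

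The list of canonical ribosomal proteins had 77 genes, of which 54 had a probe set that named 1 gene alone. Another 16, among them Rpl3, Rpl11 and Rps24, were listed only with several symbols, and 7 were not in the annotation used here; these 23 are not analysed. Fau, whose product carries the small-subunit protein eS30 but whose symbol does not match the rule, was also higher. Its levels were 10.63, 10.49, 10.57 and 10.52 in unloaded and 10.97, 11.24, 11.17 and 11.15 in acLDL arrays (0.58 ± 0.07, adjusted p = 6.0e-05).

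The 63 members had 219 probe sets between them, of which 12 repeated the values of another probe set on all arrays. In a fit over the 23410 annotated probe sets, 129 of the 219 (58.9%) were higher and 6 (2.74%) were lower, where 13.7% and 12.3% of all probe sets were. For 39 members there were several probe sets, and these are not independent because they may share RNA targets. All of a gene's probe sets were higher in 17 of the 39, all were lower in 1, none passed in 12, and they were mixed between called and not called in 9. In no gene was one probe set higher and another lower. The median range among probe sets of a gene was 0.09, while the SD of the used differences over all 63 members was 0.29.

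Rpl36 was higher on 9 of 9 probe sets, by 0.84 to 1.10, and Rps18 on 7 of 7, by 0.54 to 0.59. Rpl23a rose on 13 of 13 (0.31 to 0.39) and Rps12 on 14 of 14 (0.24 to 0.56), repeated profiles included. Rpl5 was lower on 5 of 5, with differences from -0.26 to -0.17. Rpl10 passed on 0 of 6, Rpl9 on 0 of 8 and Rpl21 on 0 of 9, so differences near 0 were shared by their probe sets too. The size was less certain in others. Rpl27a spanned 0.41 to 0.94, the probe set used being the lowest of them. Rps15 did not pass on the probe set used (0.14), but its other two were called higher at up to 0.75. Rps2, called higher, passed on 1 of 3, and Rps6 was lower on 1 of 8, the others lying as close to 0 as -0.06.

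**Figure D3:**
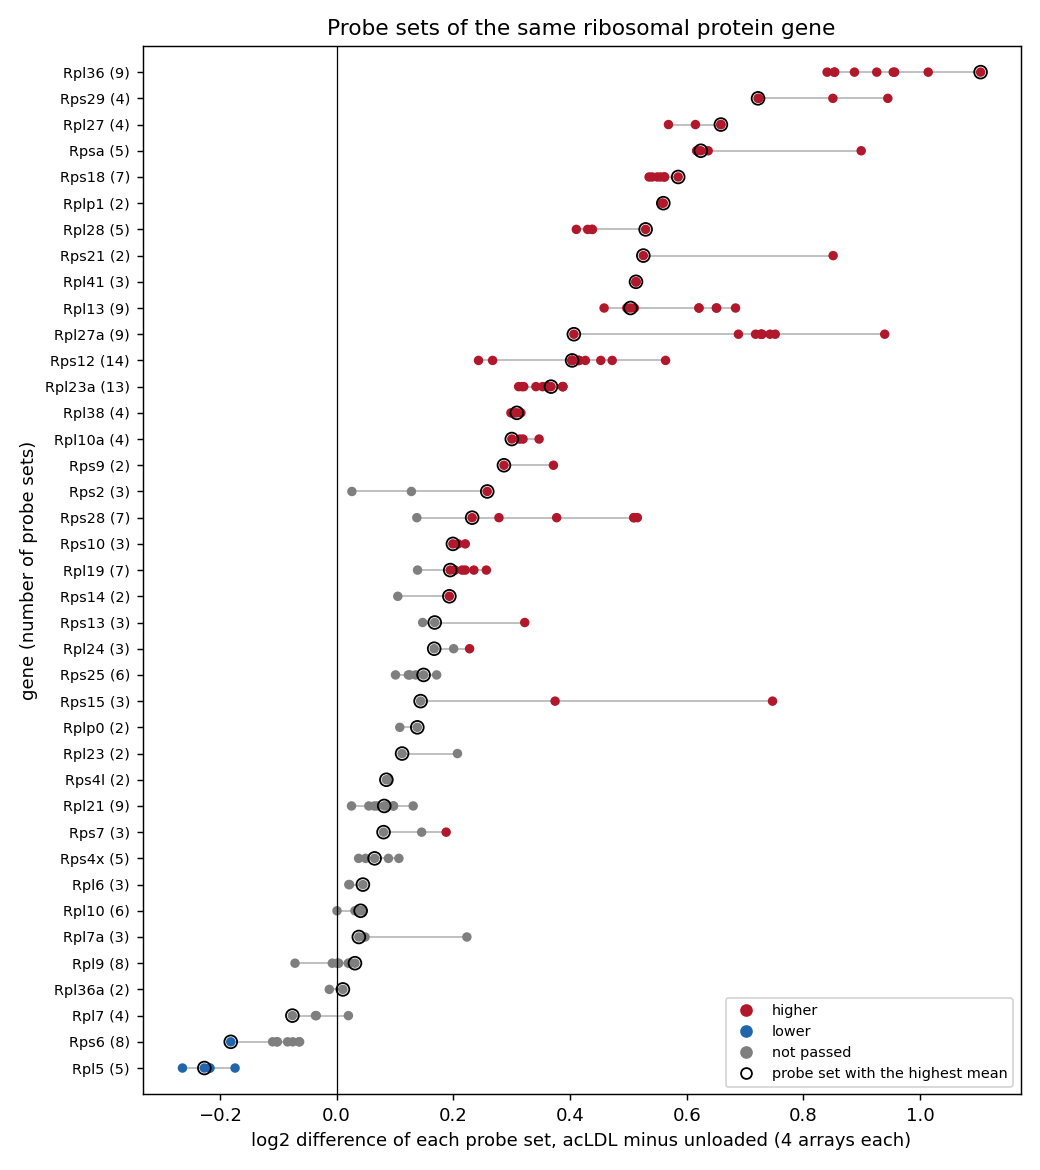
Log2 difference, acLDL minus unloaded, of every probe set (points, x axis) of the 39 members with several, 1 row a gene with its number of probe sets in brackets; the ringed point is the probe set used. Most rows are narrow, with a median range of 0.09, and the widest are those of Rps15 and Rpl27a.

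By array, the median deviation of the members from their own means was -0.05, -0.15, -0.15 and -0.12 in the unloaded arrays and 0.09, 0.13, 0.10 and 0.12 in the acLDL arrays. All 4 acLDL arrays were thus above all 4 unloaded arrays, with group means of 0.11 ± 0.02 and -0.12 ± 0.05 (SD, n = 4). Unloaded array 1 was the nearest to the acLDL group and the highest of its group in 39 of the 63 members. Over 11627 genes above the background level, this array and unloaded array 4 also differed from the other unloaded arrays in how deviations followed genomic span. Span is the distance from a gene's start to its end. Spearman's rho across genes was 0.23 and 0.21 in these, and -0.02 and -0.05 in unloaded arrays 2 and 3. In the acLDL arrays it was -0.12, -0.05, -0.20 and -0.01. Over the members alone, rho was 0.23, 0.25, 0.28 and 0.19 in the unloaded and -0.20, -0.29, -0.32 and -0.21 in the acLDL arrays. The deviations are taken from each gene's mean over both groups, so a difference between groups that follows span gives them opposite signs. For the members these values therefore largely restate the rho of -0.29 between difference and span, given below. They are not independent observations. Without unloaded arrays 1 and 4, 34 members were higher with a median of 0.24. Without unloaded arrays 2 and 3, 28 were higher with a median of 0.17. The share of all genes called higher also varied between alternative fits, from 10.0% to 25.7%. Whether the counts of members moved apart from that share was not tested.

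Ribosomal protein genes are short, with spans from 592 to 16779 bases and a median of 3352, compared with 17738 for all genes. Within the members, shorter genes tended to have larger differences: rho between difference and span was -0.29 over the 63 genes, which share the same 8 arrays, and it was -0.12 over the 11627 brighter genes. Among the 31 members under the median span, 19 were higher (median 0.29), and among the 32 at or above it, 13 were (median 0.17). With the trend against span removed from each array, 29 members were higher and the median was 0.17. In the main fit these values were 32 and 0.20, and the part of span in the members' differences was not tested. The share of all genes called higher was 12.9% in the main fit and 10.0% to 25.7% over the alternative fits. The counts 29 and 32 therefore do not by themselves show a change in the members.

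**Figure D4:**
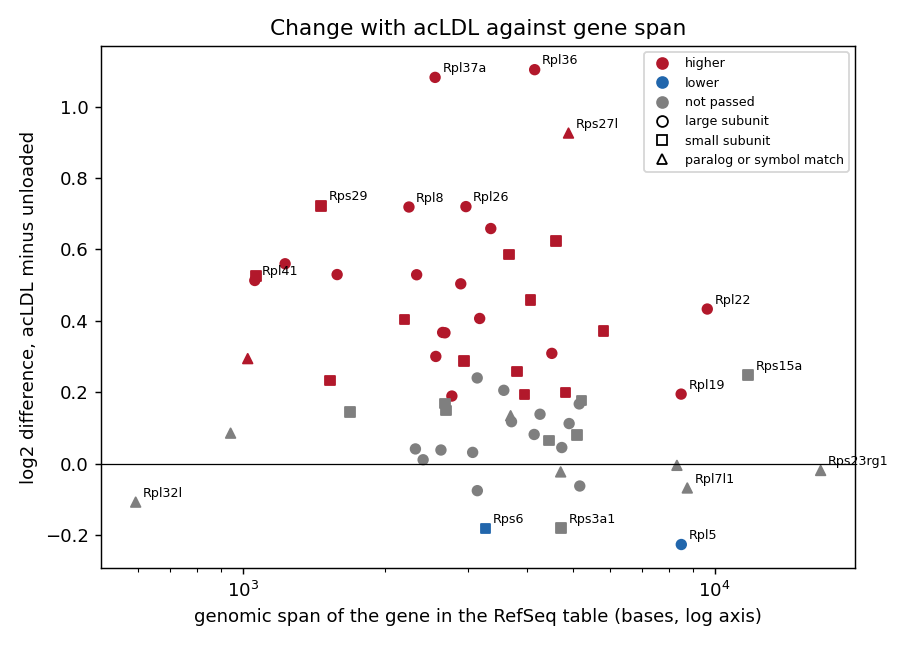
Log2 difference, acLDL minus unloaded (y axis), against the genomic span of the gene (x axis, log scale, bases) for the 63 members, with shape for the subunit and colour for the call. Rpl36, Rpl37a and Rps27l stand above the others at spans between 2554 and 4899 bases, and short genes are found both higher and not passed.

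Introns of ribosomal protein genes often carry small nucleolar RNAs (snoRNAs), which guide the modification of ribosomal RNA. In the RefSeq gene table, 20 members had a snoRNA gene within their span, matched by position alone without a check of strand or intron. Of these, 10 were higher, 1 was lower and 9 did not pass, with a median of 0.18. Of the 43 without, 22 were higher, 1 was lower and 20 did not pass, with a median of 0.21. The difference between these sets was not tested.

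Other lists of the translation machinery are given as counts beside the members. Among the 9969 genes above the median level, 36.9% were called, 21.5% higher and 15.3% lower. Of 77 mitochondrial ribosomal proteins, whose genes are nuclear and which make the proteins encoded by mitochondrial DNA, 38 were higher, 1 was lower and 38 did not pass, with a median of 0.24. Mrpl20 (0.94), Mrpl42 (0.88) and Mrps21 (0.85) rose most, and Mrpl24 fell by 0.22. The shares called higher were 49.4% here and 50.8% in the cytoplasmic members, and their difference was not tested. Translation factors and other TOP messenger RNAs had 6 higher (33.3%), 2 lower (11.1%) and 10 not passed of 18 measured, with a median of 0.13. Eif3k (0.75), a subunit of initiation factor eIF3, and Naca (0.40), which binds chains leaving the ribosome, were higher. The elongation factors Eef1a1 (-0.04) and Eef2 (0.01), both from TOP messenger RNAs, did not pass. Other elongation factor genes, Eef1b2 (0.33) and Eef1d (0.23), were higher, as were Tpt1 (0.25) and Nap1l1 (0.24) of this list. Gas5 (-0.24), a TOP RNA that hosts snoRNAs, and Eif3h (-0.21) were lower.

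Of 42 measured genes of ribosome assembly and RNA polymerase I, 11 were higher (26.2%), 5 were lower (11.9%) and 26 did not pass, with a median of 0.06. These shares lie near the 21.5% and 15.3% of genes above the median level. Rrp9 (0.59) and Fbl (0.57), proteins of the snoRNA particles that process ribosomal RNA, were higher. Rrs1, an assembly factor that helps load the 5S particle containing Rpl5, was lower. Its levels were 8.48, 8.57, 8.55 and 8.61 in unloaded and 7.19, 7.96, 7.26 and 7.76 in acLDL arrays. The acLDL arrays were spread (SD 0.38) but all below the unloaded ones (-1.01 ± 0.14, adjusted p = 0.000143).

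Regulators of ribosomal protein synthesis had 6 higher (33.3%), 2 lower (11.1%) and 10 not passed of 18, with a median of 0.06. The 44.4% called compares with 36.9% of genes above the median level. Myc, a transcription factor that drives ribosomal protein and assembly genes, was higher (0.69), as was Eif4ebp1 (0.46), a translation inhibitor that mTOR inactivates; Rps6ka3 (-0.35) was lower. Among 12 genes of ribosomal stress and quality control, 4 were higher (33.3%), 2 were lower (16.7%) and 6 did not pass, with a median of 0.12. Zfp598 (0.38) and Map3k20 (0.38), which sense stalled or collided ribosomes, were higher. Mdm2, the partner of free Rpl5, read 10.15, 10.05, 10.01 and 10.30 in unloaded and 9.67, 9.72, 9.61 and 9.70 in acLDL arrays, a fall without overlap (-0.45 ± 0.07, adjusted p = 0.000401).

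**Figure D5:**
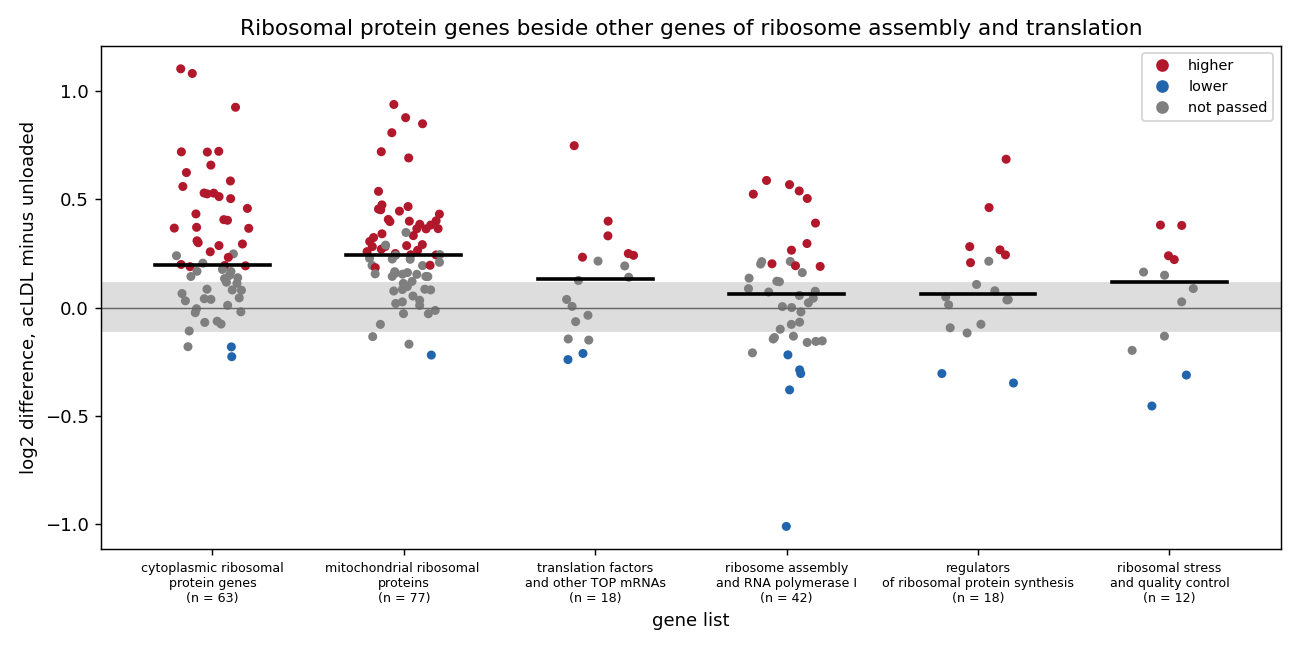
Log2 difference, acLDL minus unloaded (y axis), of each gene (points, coloured by call) in the members and 5 other lists (x axis), with a bar at each median; the grey band spans the middle 50% of all 19938 genes, from -0.11 to 0.11. The medians of the cytoplasmic (0.20) and mitochondrial (0.24) ribosomal proteins lie above the band, those of the translation factors (0.13) and stress genes (0.12) just above its edge, and the other 2 (0.06 each) within it.

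Markers of the labelled cell type were present: 8 of 8 macrophage markers were above background, at mean levels of 9.40 to 12.89, with 4 higher and 1 lower. Itgam (0.63), Adgre1 (0.59), Msr1 (0.56) and Mertk (0.33) were higher, and Cd14 (-0.33) was lower. Csf1r (-0.00), Lyz2 (0.06) and Cd68 (-0.09) did not pass, so the list did not move as a whole. The summed log2 levels of the 8 macrophage markers ran from 84.99 to 86.19 in unloaded and from 87.11 to 87.61 in acLDL arrays. Of 8 fibroblast and mesothelium markers, 6 were above background, with 1 higher and 2 lower. Dcn (mean level 10.61), Sparc (9.82), Col1a2 (9.49) and Col1a1 (9.43) lay within the range of the macrophage markers. Col3a1 (9.18) and Upk3b (6.65) lay below that range. The summed levels of the 8 were 66.99 to 68.09 in unloaded and 66.87 to 67.81 in acLDL arrays. None of 4 B cell markers, 1 of 6 T and NK cell markers, 1 of 5 neutrophil markers and 1 of 7 eosinophil and mast cell markers were above background. In these lists 0 markers were higher, while 0, 1, 2 and 2 were lower. The eosinophil marker above background, Siglecf, which some macrophages also express, fell from 7.97 ± 0.13 to 7.37 ± 0.09 (SD, n = 4) without overlap (-0.60 ± 0.08 SE, limma adjusted p = 9.0e-05). Their summed levels were 20.74 to 21.48 and 21.10 to 21.87 for B cells, 33.25 to 34.20 and 32.65 to 33.60 for T and NK cells, 27.15 to 27.96 and 26.50 to 27.35 for neutrophils, and 39.57 to 40.44 and 38.92 to 39.30 for eosinophils and mast cells. The part of other cells in the members' differences was not tested.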

How the data were processed

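Total RNA of 8 cultures was hybridised to Affymetrix Mouse Gene 1.0 ST arrays, whose probes lie along each gene. The deposited values are log2 levels made with RMA, per the submitters' processing notes; RMA corrects background, matches the arrays' distributions and summarises probes, so that a change shared by all genes is hidden. Its version was not given in the sources used here. Of 35557 probe sets, 23410 were annotated and 21789 had 1 symbol, while 1621 had several and were left out of the main test. Symbols were looked up in the RefSeq gene table (GRCm38.p6), which held 21698 of them and changed 0. For the 999 genes with several probe sets, the probe set with the highest mean was used. Groups came from the sample descriptions.

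Each gene's difference, acLDL minus unloaded, got a two-sided moderated test (limma 3.58.1 under R 4.3.3, functions lmFit and eBayes); p-values were adjusted over 19938 genes by Benjamini-Hochberg, and 0.05 was the threshold. On simulated data for this comparison, the test recovered 26% of genes changed 1.2-fold, 90% at 1.5-fold, 96% at 2-fold and 100% at 3-fold, of 50 each among 19938 genes. The simulation made 164 calls and the data gave 4650, so the adjustment was stricter in the simulation. Its changed genes were drawn from all genes tested, so these shares do not give the recovery for the members.

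The members, the gene lists, the background level and the tests were chosen with earlier results of these data known. Rules for naming members took the 10 largest rises and the falls past the threshold without overlap, the paralogs and symbol matches, and the brightest and dimmest. They also took those with several probe sets, those at the threshold, and Rplp0, Rplp1, Rplp2 and Rpsa. Rpl4, Rpl12, Rps3, Rps3a1 and Rps20 were described outside these rules. Motifs were searched in the table's entry for each gene's most upstream start, from 250 bases before to 50 after it. Alternatives covered the probe set of a gene, the genes tested, normalization, the variance model, array weights, gene span and left-out arrays.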

Additional observations from a re-analysis of the deposited data

Results flagged for a closer look

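Within each group of 4 arrays, 1 array lay apart from the other three by Dixon's 95% criterion in 7 of the 126 groups tested (63 members in 2 groups); chance gives about 1 in 20. In acLDL array 1, Rpl37a was at 10.98 (the others 10.78 to 10.81), Rplp1 at 12.21 (12.11 to 12.12), Rpsa at 11.38 (11.14 to 11.18) and Rpl10 at 12.51 (the others all at 12.48). These 4 were all the highest of their group, and the calls for Rpl37a, Rplp1 and Rpsa held without that array. In acLDL array 4, Rpl22 was high at 8.41 (8.18 to 8.21) and Rps12 low at 11.69 (11.76 to 11.77). In unloaded array 2, Rpl32l was low at 7.94 (8.03 to 8.04).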

How the results depend on the processing

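Over 22 alternatives, 25 of the 34 called members (24 of them higher) kept their call in all, 9 lost it in at least 1 (Rpl10l, Rpl19, Rpl30, Rpl38, Rps2, Rps6, Rps9, Rps10 and Rps14), 12 others gained one, and 0 changed direction. Members called higher numbered 28 to 41, the most under a trended and robust variance prior (13.7% of all genes higher there), and the median difference 0.17 to 0.24. The share of all genes called higher ran from 10.0% with all deposited probe sets to 25.7% with genes above the median level only. Members called lower numbered 1 with the replicate block, with the mean or the lowest-mean probe set of each gene (the latter chosen after seeing the data), with repeated quantile normalization, centring on array medians or cyclic loess, and without unloaded arrays 1 and 4. Leaving out each array in turn gave 1 to 2, the 2 only without unloaded replicate 2; Rps6 is the call lost, and the cause was not tested. The trended prior called 3 lower. The sources do not say that equal array numbers share mice, and they were not treated as pairs: deviations of equally numbered arrays correlated at 0.11, -0.16, 0.30 and 0.13 over genes, and 1 of 4 unloaded arrays was closest to its own number. Under the block Rps6 and Rps14 lost their calls and Rpl14 gained one; whether the cultures were paired is not known. Small differences of about 0.2 and below stay near the limit of 4 arrays a group.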
